A study of Oncorhynchus mykiss with 6 samples.

Results

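Laminin chains and integrin subunits were taken as every locus whose product name in the deposited table contains "laminin subunit", "integrin alpha" or "integrin beta". This gave 111 of 41818 loci in dorsal skin of rainbow trout (Oncorhynchus mykiss), of which 94 had enough counts to be tested. Of the 111, 37 are laminin chains, 47 are integrin alpha subunits, 20 are integrin beta subunits and 7 only carry an integrin beta name (integrin beta-like proteins and integrin beta-1-binding protein 1). The RNA came from 3 libraries of wild-type fish and 3 libraries of the yellow mutant, all sampled at 45 days of age. The labels give no strain, allele, sex or treatment beyond the phenotype, and do not tell whether each library is a different fish. The p-values therefore measure only how far these libraries vary, which may be technical.

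Laminins are secreted trimers of an alpha, a beta and a gamma chain and form the sheet on which basement membranes are built. In mammalian skin, the laminin that holds the alpha-3 and beta-3 chains anchors the basal epidermal cells by binding integrin alpha-6/beta-4 of the hemidesmosome, while laminins with other alpha chains are shared with the basement membranes of vessels, muscle and nerve. Integrins are receptors of an alpha and a beta subunit. Beta-1 pairs with many alpha subunits that bind laminin, collagen or fibronectin, alpha-5, alpha-8 and alpha-V read the Arg-Gly-Asp (RGD) motif of matrix proteins, and beta-2 and beta-7 belong to leukocytes. These roles are known from mammals, and rainbow trout carry several copies of many of these genes, so each locus was counted on its own.

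Total counts were 15059101 to 19031878 per library. Levels are given as CPM (read counts relative to library size, scaled with TMM factors), in the order of replicates 1 to 3, changes as log2 fold changes (yellow mutant over wild type, so that a negative value is lower in the yellow mutant) with a standard error (SE), and p-values were adjusted after edgeR's quasi-likelihood test over all 30691 genes tested. The TMM factors separated the phenotypes, at 0.9203 to 0.9505 in the wild type and 1.061 to 1.078 in the yellow mutant. With library totals alone the median log2 fold change of all genes moved from -0.003 to 0.196, so changes are relative to that median. Epidermal cell markers were present and lower in the yellow mutant (21 of 24 loci lower and 1 higher, median log2 fold change -0.83). Of all genes tested, 23.1% were lower and 21.7% higher, and the marker counts below are to be read beside these shares. The summed level of the epidermal markers was 3620 to 4160 CPM in the wild type and 2080 to 2150 CPM in the yellow mutant. In whole skin, fewer cells of a type and less RNA per cell cannot be told apart.

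Yellow mutant skin carried much less RNA of the leading laminin alpha-3 and beta-3 loci than wild-type skin. It carried less of the leading loci of the receptor subunits alpha-6 and beta-4. Some copies of integrins beta-1, alpha-5, alpha-8, beta-3 and beta-8 were higher. However, the leading beta-1 and beta-3 copies did not pass (log2 fold changes 0.18 and -0.12). Both alpha-8 calls and that of the leading alpha-5 copy were lost on leaving out single libraries. In all, 41 of the 94 tested loci passed an adjusted p of 0.05 (43.6%), against 44.8% of all genes tested. Of these, 31 were lower and 10 higher, where 23.1% of all genes were lower and 21.7% higher. The median log2 fold change was -0.21 over the 94 loci. Among those whose log2 fold change was also 1 or more in size, 7 loci were lower (6.64% of all genes) and 2 higher (4.81% of all genes). The CPM of the phenotypes did not overlap in 53 of the 94 loci, against 54.3% of all genes (26.8% higher and 27.6% lower). The share of loci called was thus near that of all genes. The direction of the calls moved with the scaling, as it did for all genes. With library totals alone 25 loci were higher and 20 lower. In that setting 10805 of the 30691 genes tested were higher and 4544 lower. Counts by class with library totals alone, given below, are to be read beside these numbers. The authors' deposited table lists 34 of the loci with an FDR under 0.05, 8 higher and 26 lower, and all 34 passed in edgeR with the same sign.

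Of the 15 epidermal loci, 10 were lower in the yellow mutant, where 23.1% of all genes were lower. The other 5 did not pass, and the median log2 fold change was -0.70. With library totals alone 9 were lower and 2 higher, a setting in which 4544 of all 30691 genes tested were lower and 10805 higher. LAMB3 (ncbi_110529014), the leading laminin beta-3 locus, stood at 157, 157 and 174 CPM in the wild type and at 35.7, 27.0 and 29.6 CPM in the yellow mutant. Every yellow mutant library was far below every wild-type library, a log2 fold change of -2.41 (SE 0.103 and adjusted p = 3.43e-09), or 5.30-fold lower. LAMA3 (ncbi_110508648), the leading alpha-3 locus, stood at 192, 218 and 241 CPM against 66.9, 77.6 and 73.0 CPM. Its log2 fold change was -1.58 (SE 0.097 and adjusted p = 5.93e-08), without overlap.

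The other alpha-3 and beta-3 copies were less abundant, and 2 of the 4 were lower. A second alpha-3 copy, LAMA3 (ncbi_110530407), stood at 36.9, 37.3 and 36.1 CPM in the wild type and at 17.3, 21.9 and 19.2 CPM in the yellow mutant. This copy fell by 0.91 on the log2 scale (SE 0.0918 and adjusted p = 4.18e-06). A short beta-3 locus without a reference gene number, LAMB3 (MSTRG.11386), stood at 2.62, 3.15 and 3.45 CPM against 0.405, 0.0979 and 0.41 CPM. It was lower by a log2 fold change of -3.33 (SE 0.381 and adjusted p = 1.3e-05), but rests on 145 and 17 counts and reached the filter level in all libraries of the wild type only. The remaining copies did not pass. LAMB3 (ncbi_110494989) stood at 9.42, 9.87 and 10.6 CPM against 7.98, 9.54 and 11.7 CPM, a log2 fold change of -0.03 (SE 0.139 and adjusted p = 0.877). Lama3 (ncbi_110521524) stood at 1.79, 1.5 and 1.94 CPM against 1.39, 1.17 and 1.28 CPM, with a log2 fold change of -0.45 (SE 0.267 and adjusted p = 0.188).

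Both receptor subunits had 1 abundant copy that was lower and 1 that did not pass. Itgb4 (ncbi_110492816), the leading beta-4 locus, stood at 194, 196 and 197 CPM in the wild type and at 125, 124 and 113 CPM in the yellow mutant. It was lower in all libraries by a log2 fold change of -0.70 (SE 0.0763 and adjusted p = 8.78e-06). The other copy, Itgb4 (ncbi_110498731), stood at 62.6, 60.0 and 64.2 CPM against 60.9, 71.9 and 66.3 CPM. These values overlapped (log2 fold change 0.09, SE 0.0805 and adjusted p = 0.375), and with library totals alone the copy passed as higher (0.29, adjusted p = 0.00923). ITGA6 (ncbi_110530660), the leading alpha-6 locus, stood at 286, 243 and 272 CPM against 207, 201 and 194 CPM. The groups did not overlap, with a log2 fold change of -0.41 (SE 0.0836 and adjusted p = 0.00131), which was -0.22 with library totals alone (adjusted p = 0.045). A second copy, Itga6 (ncbi_110508450), stood at 85.9, 81.7 and 83.5 CPM against 100, 97.1 and 89.3 CPM. Its values did not overlap in the opposite direction, yet its log2 fold change of 0.19 (SE 0.0752 and adjusted p = 0.0532) missed the threshold, and passed with library totals alone (0.39, adjusted p = 0.000745) and without yellow mutant replicate 3 (adjusted p = 0.0243).

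The 3 remaining alpha-6 loci were rare. Itga6 (ncbi_110520109) stood at 3.76, 4.01 and 3.33 CPM in the wild type and 1.10, 1.66 and 0.921 CPM in the yellow mutant, a log2 fold change of -1.57 (SE 0.258 and adjusted p = 0.000264). Itga6 (ncbi_110489023) stood at 2.74, 3.65 and 2.78 CPM against 1.21, 1.76 and 1.79 CPM, a log2 fold change of -0.93 (SE 0.248 and adjusted p = 0.00812). Both were lower without overlap. Itga6 (ncbi_110501452) overlapped between the groups at 0.596, 0.644 and 0.787 CPM against 1.39, 0.881 and 0.717 CPM, with a log2 fold change of 0.54 (SE 0.371 and adjusted p = 0.26).

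**Figure D1:**
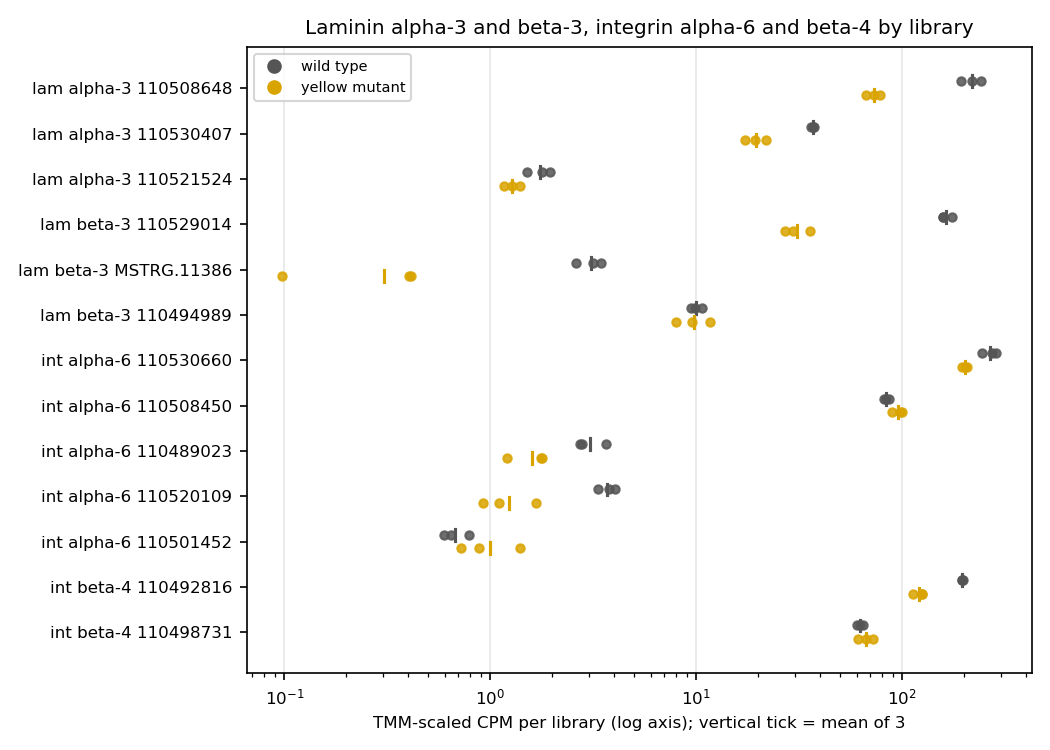
TMM-scaled CPM of 13 epidermal loci (log axis), 1 point per library and a vertical tick at the mean of 3; grey is the wild type and ochre the yellow mutant. The leading alpha-3 and beta-3 loci were well separated, while the second copies of alpha-6 (110508450), beta-4 (110498731) and beta-3 (110494989) lay close together.

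Ratios within each library set the leading alpha-3 and beta-3 laminin loci against those of the receptor. These ratios restate the fold changes above for loci already called, so they are not separate support, but they do not depend on the scaling. Together with ratios to epidermal markers, 11 were computed, each without overlap between the phenotypes. No share without overlap was computed for other gene pairs. Every exact two-sided permutation test gave p = 0.1, the smallest that 3 against 3 libraries allow (Benjamini-Hochberg adjusted over the 11 ratios, 0.1), so none can pass 0.05. Relative to ITGA6 (ncbi_110530660), the leading LAMB3 locus had a log2 ratio of -0.71 ± 0.135 in wild-type libraries and -2.71 ± 0.18 in those of the yellow mutant (SD, n = 3), a difference of -2. The difference was -1.17 for LAMA3. Relative to Itgb4 (ncbi_110492816), the differences were -1.71 for LAMB3 and -0.88 for LAMA3.

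The same leading loci were set against the summed CPM of the 24 epidermal marker loci (tp63, cdh1, dsp, perp, evpl, ppl, pkp1, pkp3 and grhl3). The log2 ratio of LAMB3 to this sum was -4.57 ± 0.0412 in wild-type libraries and -6.11 ± 0.214 in those of the yellow mutant (SD, n = 3). The ratio was lower in the yellow mutant by a log2 difference of -1.54 for LAMB3 and -0.71 for LAMA3. For the receptor the ratio was higher in the yellow mutant, by 0.46 for ITGA6 and 0.17 for Itgb4. These shifts, to lower ratios for both laminin loci and to higher ones for both receptor loci, held in all libraries. For Itgb4 the phenotypes nearly met, at -4.223 in wild-type replicate 1 and -4.206 in yellow mutant replicate 3. Both receptor loci were themselves lower in CPM, and their ratios rose because the marker sum fell more.

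**Figure D2:**
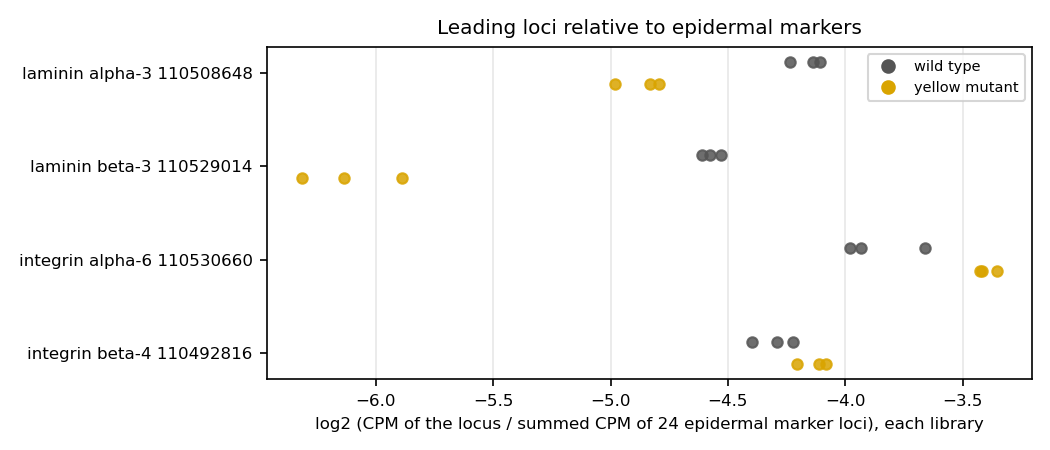
Log2 ratio of the leading laminin alpha-3 and beta-3, integrin alpha-6 and beta-4 loci to the summed CPM of 24 epidermal marker loci, 1 point per library (grey, wild type; ochre, yellow mutant). The laminin loci shift to lower ratios in the yellow mutant, and ITGA6 and, by a narrow gap, Itgb4 to higher ones.

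Copies of the same subunit were compared within each library. Over 38 pairs of a leading locus and another copy, covering 22 subunits, the log2 ratio within a library did not overlap between the phenotypes in 15, and was lower in the yellow mutant in 9 of these and higher in 6. The share for other gene pairs was not computed. In these 15 pairs the exact permutation test gave p = 0.1, the smallest that 3 against 3 libraries allow, so none can pass 0.05. Adjusted over the 38 pairs by Benjamini-Hochberg, the smallest p was 0.253. LAMB3 showed the widest gap among these pairs: the log2 ratio of ncbi_110529014 to ncbi_110494989 was 4.03 ± 0.032 in wild-type libraries and 1.67 ± 0.433 in those of the yellow mutant (SD, n = 3). Relative to the short LAMB3 locus MSTRG.11386, the same leading copy went the other way, from 5.74 ± 0.143 to 6.92 ± 1.04, on the few counts given above. Integrin alpha-5 (ncbi_110532566 over ncbi_110528502) and laminin beta-1 (ncbi_110501062 over ncbi_110499119) also had higher ratios in the yellow mutant, by 0.62 and 0.48. Integrin beta-4 went from 1.65 ± 0.049 to 0.86 ± 0.149 and integrin alpha-6 from 1.67 ± 0.086 to 1.07 ± 0.04. Reads shared between near-identical copies could be split in ways the sources used here do not describe, so values of single copies are uncertain to that extent.

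Per length, in the authors' FPKM summed over the copies of a subunit, laminin beta-1 had the highest mean of the chains in both phenotypes, at 58.7 ± 3.23 in wild-type libraries and 64.2 ± 4.01 in those of the yellow mutant (SD, n = 3). Beta-3 was next in the wild type at 54.6 ± 3.02 FPKM, with a range that overlapped that of beta-1. In wild-type replicate 3 beta-3 was above beta-1 (58.1 against 55.1 FPKM). The short, low-count locus MSTRG.11386 held 8.41 FPKM of that beta-3 value, more than the gap to beta-1. The overlap of beta-3 with beta-1 thus rests on this locus. In the yellow mutant beta-3 stood at 12.6 ± 1.61 FPKM, near beta-4 at 11.3 ± 0.427 and beta-2 at 13.2 ± 0.70. Alpha-3 stood at 22.7 ± 1.91 and 9.46 ± 0.833 FPKM. Gamma-1 stood at 29.9 ± 1.14 and 30.9 ± 1.86 FPKM. Among integrins, beta-1 was highest at 83.8 ± 4.80 and 111 ± 3.14 FPKM, followed by alpha-6 at 77.8 ± 5.88 and 74.5 ± 2.60 FPKM. Beta-1 was above alpha-6 in every library, but in the wild type the ranges of the pair overlapped. Beta-4 stood at 36.6 ± 0.363 and 29.8 ± 1.38 FPKM and alpha-V at 19.2 ± 1.61 and 20.4 ± 1.09 FPKM. FPKM follow library totals, so these levels lack the TMM scaling used for the changes.

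**Figure D3:**
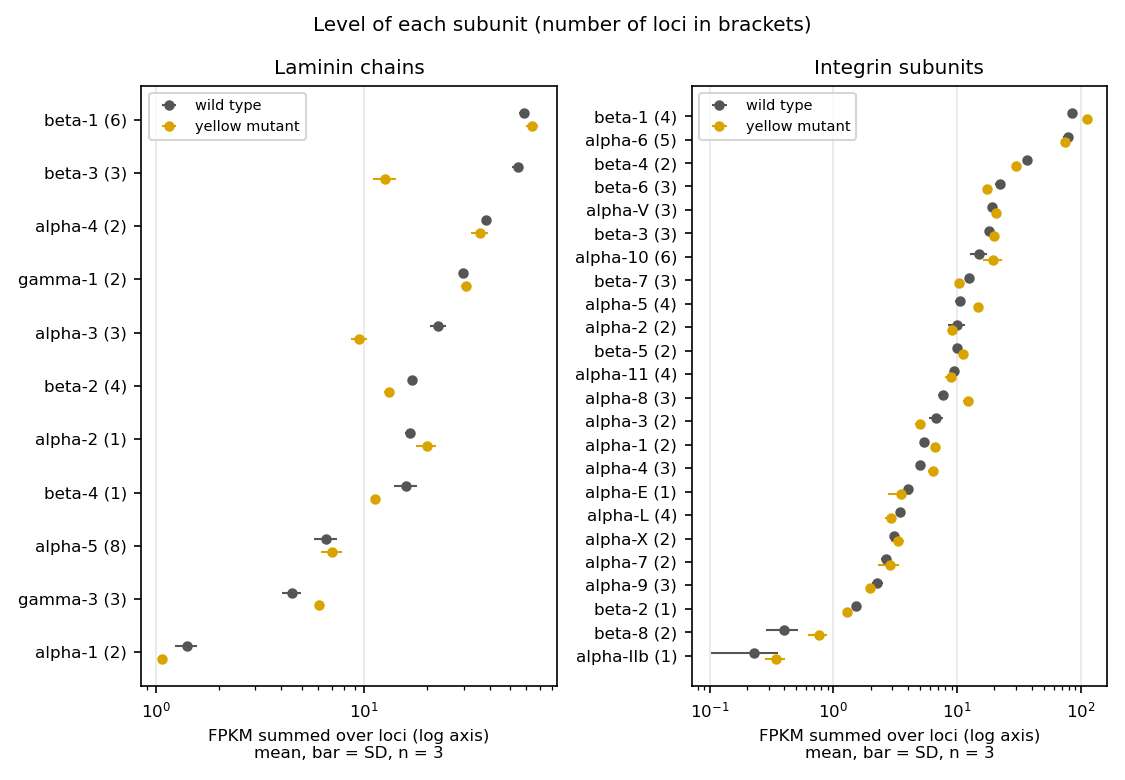
FPKM summed over the loci of each laminin chain (left) and integrin subunit (right), as mean and SD of 3 libraries on a log axis, with the number of loci in brackets (grey, wild type; ochre, yellow mutant). Laminin beta-3 and alpha-3 stand apart between the phenotypes, while beta-1, alpha-4 and gamma-1 laminin levels nearly coincide in these FPKM, which lack the TMM scaling. In TMM-scaled CPM, the alpha-4 and gamma-1 sums were lower in the yellow mutant without overlap.

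Of 22 tested loci of the other laminin chains, 10 were lower, 1 was higher and 11 did not pass (median log2 fold change -0.29). Among all genes tested, 23.1% were lower and 21.7% higher. With library totals alone 6 were lower and 4 higher. The lamb4 locus (ncbi_110524080) stood at 146, 120 and 122 CPM in the wild type and at 84.6, 78.2 and 78.1 CPM in the yellow mutant. It was lower without overlap (log2 fold change -0.69, SE 0.0891 and adjusted p = 3.71e-05). Lamb2 (ncbi_110532270), which encodes a beta-2 chain, stood at 47.7, 51.5 and 45.5 CPM against 33.0, 32.7 and 25.5 CPM. Its log2 fold change was -0.66 (SE 0.101 and adjusted p = 0.000139). Of the other beta-2 loci, ncbi_110531192 fell by 0.55 and ncbi_110492626 by 0.57 on the log2 scale, the latter call being lost with limma on FPKM. LAMA4 (ncbi_110522139), the laminin alpha-4 chain of vessel walls in mammals and the most abundant other chain locus by FPKM, stood at 236, 236 and 230 CPM against 210, 196 and 172 CPM. The fall was small (log2 fold change -0.28, SE 0.086 and adjusted p = 0.017) and did not pass with library totals alone, with limma on FPKM, without wild-type replicate 2 (adjusted p = 0.0562) or without yellow mutant replicate 3 (adjusted p = 0.0667).

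The widespread chains gave mixed values. Among the 4 tested beta-1 loci, Lamb1 ncbi_110524092 and ncbi_110499119 fell by 0.32 and 0.40, and ncbi_110501062 and ncbi_110490219 had log2 fold changes of 0.09 and 0.04 that did not pass. Neither of the lower Lamb1 calls was kept with limma on FPKM, nor was that of ncbi_110524092 with library totals alone. Of the gamma-1 loci, lamc1 (ncbi_110508755) fell by 0.30 on the log2 scale, a call not kept with library totals alone or with limma on FPKM. The other, ncbi_110530303, had a log2 fold change of -0.01 and did not pass. Lama1 (ncbi_110490937), the alpha-1 chain of early embryonic basement membranes in mammals, fell by 0.55, a call lost with limma on FPKM. The alpha-5 chain, widespread under mammalian epithelia, is split over 8 loci, and the 4 tested had log2 fold changes from -0.10 to 0.12 that did not pass. Lama2 (ncbi_110522171), the chain of the muscle basement membrane in mammals, had a log2 fold change of 0.08 and did not pass. The 1 higher laminin locus was LAMC3 (ncbi_110509602), with a log2 fold change of 0.27 (SE 0.0858 and adjusted p = 0.0206), lost on leaving out wild-type replicate 2, wild-type replicate 3 or yellow mutant replicate 1. Skeletal muscle markers were at 23300 to 28800 CPM summed in the wild type and 16900 to 25500 CPM in the yellow mutant. Of these markers, 6 of 29 tested loci were higher and 7 lower (21.7% and 23.1% of all genes). Their part in these values was not tested.

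In the gene order of the reference table, the lamb4 locus (ncbi_110524080) and Lamb1 (ncbi_110524092) lie side by side, and fell by 0.69 and 0.32. The neighbouring Lamb2 loci ncbi_110531192 and ncbi_110532270 fell by 0.55 and 0.66. Of 2 neighbouring Itgal loci, ncbi_110485924 fell by 0.50 and ncbi_110485921 had a log2 fold change of -0.29 that did not pass. Alpha-1 and alpha-2 integrin genes lie together at 2 places. At one, ITGA1 (ncbi_110523918) had a log2 fold change of 0.09 that did not pass and Itga2 (ncbi_110523919), with 1 gene between them, fell by 0.33. At the other, ITGA2 (ncbi_110537004) and ITGA1 (ncbi_110537005) had log2 fold changes of -0.57 and 0.20 that did not pass. Both lower integrin calls in these pairs were lost without wild-type replicate 1 and without other single libraries, named with each locus below. The differences between neighbours were not tested.

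**Figure D4:**
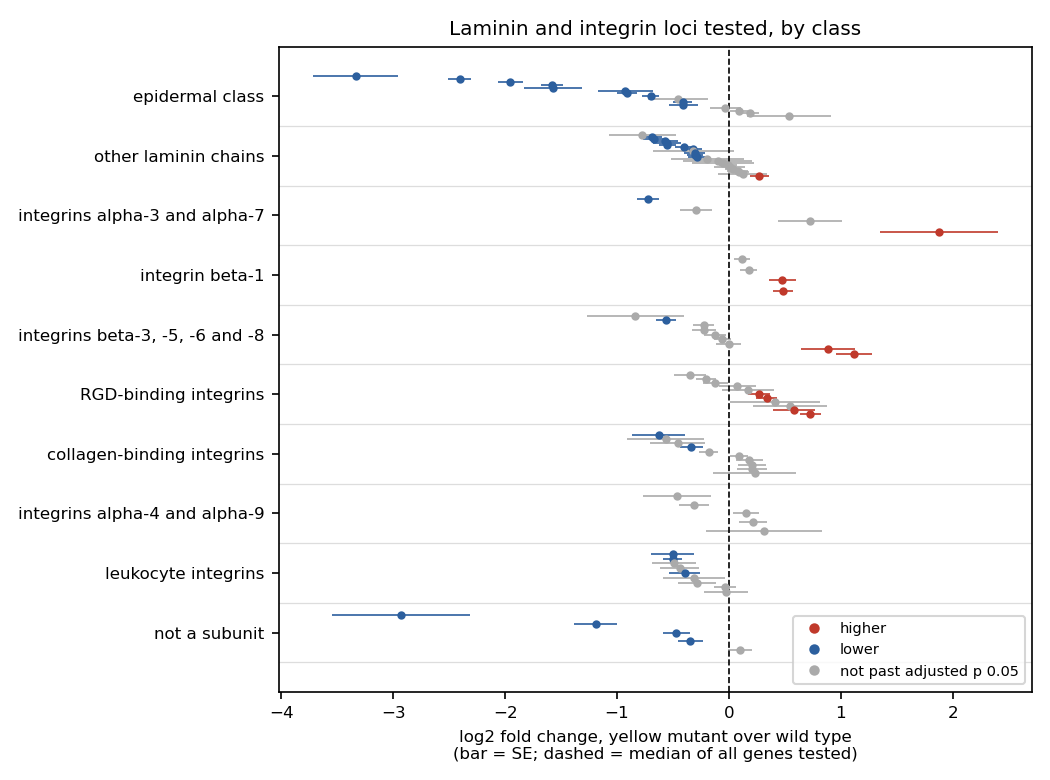
Log2 fold change (yellow mutant over wild type) with its SE for the 94 tested loci in 10 classes; red marks loci higher and blue loci lower at an adjusted p of 0.05, grey those not past it, and the dashed line is the median of all genes tested. Epidermal and other laminin loci lie mostly to the left, with integrin beta-1 loci to the right.

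Of the 4 integrin beta-1 loci, 2 were higher in the yellow mutant, where 21.7% of all genes were higher. All 4 passed as higher with library totals alone, a setting in which 10805 of all 30691 genes tested were higher. None of the 4 overlapped between the phenotypes, as was the case for 54.3% of all genes. ITGB1 (ncbi_110535543) stood at 37.3, 31.3 and 31.4 CPM in the wild type and at 49.2, 42.8 and 47.8 CPM in the yellow mutant, a log2 fold change of 0.48 (SE 0.0912 and adjusted p = 0.000821). ITGB1 (ncbi_110508785) stood at 10.9, 14.0 and 11.1 CPM against 18.7, 15.8 and 15.6 CPM, a log2 fold change of 0.48 (SE 0.12 and adjusted p = 0.00548). The leading copy, ITGB1 (ncbi_110530238), did not pass at 248, 227 and 233 CPM against 276, 261 and 264 CPM (log2 fold change 0.18, SE 0.0773 and adjusted p = 0.0789). The 4th copy, ncbi_110490033, had a log2 fold change of 0.12 and did not pass.

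Of the laminin-binding partners of beta-1, alpha-3 and alpha-7, 1 of 4 tested loci was lower and 1 higher (23.1% and 21.7% of all genes). With library totals alone 1 was lower and 2 were higher. ITGA3 (ncbi_110491547), an epidermal laminin receptor in mammals, stood at 32.4, 30.9 and 26.3 CPM in the wild type and at 17.6, 19.8 and 16.9 CPM in the yellow mutant. It was lower without overlap (log2 fold change -0.72, SE 0.0997 and adjusted p = 6.57e-05). A rarer ITGA3 copy, ncbi_110538062, went the other way without overlap, but did not pass (log2 fold change 0.73, adjusted p = 0.0524). That copy passed as higher with library totals alone (0.93, adjusted p = 0.0158). Itga7 (ncbi_110493287), whose product binds laminin in mammalian muscle, was barely detected, at 0.239, 0.429 and 0.0605 CPM against 1.21, 0.734 and 0.717 CPM. It was higher (log2 fold change 1.88, SE 0.526 and adjusted p = 0.0106) on 11 and 50 counts, and reached the filter level in all libraries of the yellow mutant only. The call was lost without wild-type replicate 3 (1.41, adjusted p = 0.0559). The far more abundant alpha-7 copy, ncbi_110528585, had a log2 fold change of -0.29 (adjusted p = 0.118) and did not pass.

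Of 11 RGD-binding alpha loci, 4 were higher and 7 did not pass, where 21.7% of all genes were higher. With library totals alone 4 were higher, a setting in which 10805 of all 30691 genes tested were higher. The itga5 locus ncbi_110493946, a fibronectin receptor subunit, stood at 11.3, 12.2 and 11.2 CPM in the wild type and 18.2, 19.3 and 19.8 CPM in the yellow mutant. It was higher without overlap (log2 fold change 0.73, SE 0.0928 and adjusted p = 3.29e-05). A second itga5 copy, ncbi_110532566, had a log2 fold change of 0.27 (adjusted p = 0.0365), with overlapping values and a call lost in DESeq2 and on leaving out wild-type replicate 1 or 3 or yellow mutant replicate 2 or 3. ITGA8 (ncbi_110534631), which binds nephronectin in mammals, stood at 5.43, 3.22 and 5.21 CPM against 6.42, 6.70 and 7.83 CPM. Its log2 fold change of 0.58 (SE 0.186 and adjusted p = 0.0206) did not pass without wild-type replicate 2 (0.39, adjusted p = 0.0787) or yellow mutant replicate 3 (0.50, adjusted p = 0.0779). The other called ITGA8 copy, ncbi_110513012, had a log2 fold change of 0.34 (adjusted p = 0.00988), and an adjusted p of 0.0514 without wild-type replicate 3. ITGAV (ncbi_110501956), the most abundant of the class by FPKM, stood at 41.7, 34.0 and 35.8 CPM against 32.4, 34.0 and 30.6 CPM, and did not pass (log2 fold change -0.20, SE 0.0904 and adjusted p = 0.0848).

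The beta subunits that pair with alpha-V (beta-3, beta-5, beta-6 and beta-8) had 2 of 9 tested loci higher and 1 lower, the same with library totals alone. Among all genes tested, 21.7% were higher and 23.1% lower. ITGB3 (ncbi_110491676) stood at 3.58, 5.22 and 4.12 CPM in the wild type and at 8.15, 9.83 and 9.83 CPM in the yellow mutant. This was 2.17-fold higher without overlap (log2 fold change 1.12, SE 0.16 and adjusted p = 8.92e-05). The 2 more abundant beta-3 copies, ncbi_110486231 and ncbi_110538161, had log2 fold changes of -0.12 and -0.23 that did not pass. ITGB8 (ncbi_110496521), which activates TGF-beta in mammals, stood at 1.79, 1.36 and 1.76 CPM against 2.54, 3.57 and 2.97 CPM, a log2 fold change of 0.88 (SE 0.24 and adjusted p = 0.00895). ITGB6 (ncbi_110495862), an epithelial subunit with the same role in mammals, stood at 43.2, 43.7 and 46.2 CPM against 34.2, 27.2 and 29.0 CPM. It was lower without overlap (log2 fold change -0.56, SE 0.091 and adjusted p = 0.000246). Beta-3 is also a thrombocyte subunit, and the summed thrombocyte markers stood at 28.1 to 32.3 CPM in the wild type and 43.4 to 67.5 CPM in the yellow mutant. Only 2 of the 5 thrombocyte symbols were found, with 2 of 3 tested loci higher and 1 of 8 loci at 0 in every library. The integrin alpha-IIb locus (ncbi_110538030), counted with the RGD-binding class, did not pass (log2 fold change 0.41, adjusted p = 0.434, 44 and 71 counts). Endothelial markers were summed at 97.9 to 114 CPM and 102 to 126 CPM, with 3 of 14 tested loci higher, against 21.7% of all genes. The part of thrombocyte and endothelial markers in the beta-3 value was not tested.

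**Figure D5:**
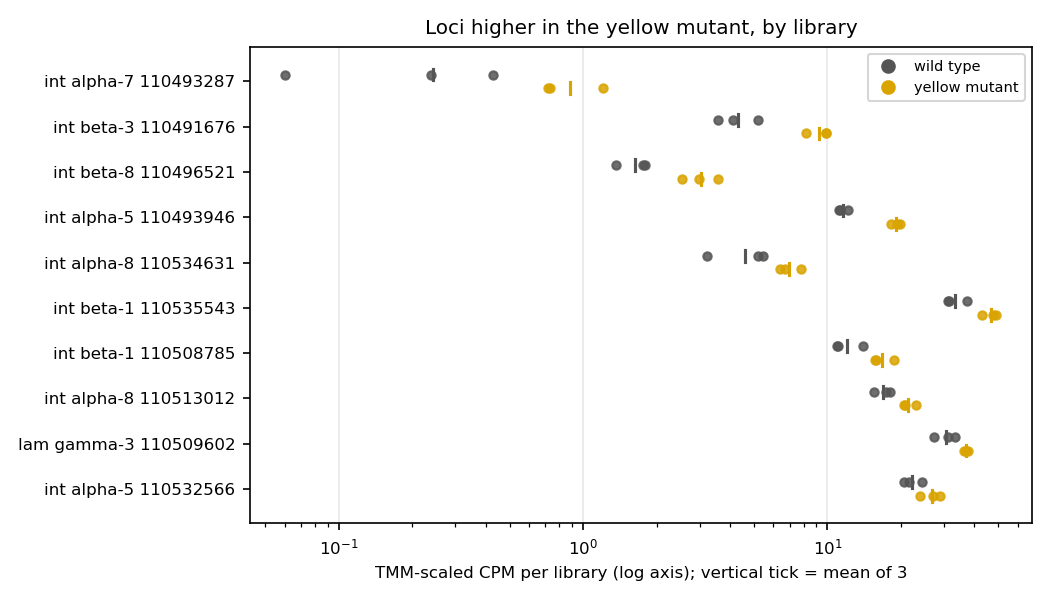
TMM-scaled CPM (log axis) of the 10 loci that passed as higher in the yellow mutant, 1 point per library and a tick at the mean of 3 (grey, wild type; ochre, yellow mutant). The beta-3 and alpha-5 (110493946) loci are well separated, whereas the second alpha-5 locus (110532566) overlaps.

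Leukocyte integrins were low to moderate in level, and 3 of 9 tested loci were lower (median log2 fold change -0.39). Of all genes tested, 23.1% were lower. The share called in either direction, 33.3%, was below the 44.8% of all genes. With library totals alone, and with limma on FPKM, 1 was lower. ITGB7 (ncbi_110494334), the beta subunit of gut- and epithelium-homing leukocytes in mammals, stood at 39.5, 36.3 and 39.6 CPM in the wild type and at 27.9, 24.9 and 28.9 CPM in the yellow mutant. It was lower without overlap (log2 fold change -0.50, SE 0.0836 and adjusted p = 0.000305). Itgal (ncbi_110485924), the alpha-L subunit, stood at 4.65, 5.72 and 4.48 CPM against 3.12, 4.26 and 3.02 CPM. Its log2 fold change of -0.50 (SE 0.193 and adjusted p = 0.0481) lay at the threshold and was lost on leaving out any library other than yellow mutant replicate 2. Itgae (ncbi_110503895), the partner of beta-7 that binds E-cadherin in mammals, had a log2 fold change of -0.39 (adjusted p = 0.0318), lost on leaving out wild-type replicate 2 or 3 or yellow mutant replicate 1 or 2. ITGB2 (ncbi_110501577) did not pass at -0.44 (adjusted p = 0.0562). Leukocyte markers were summed at 363 to 373 CPM in the wild type and 312 to 333 CPM in the yellow mutant. Of these markers, 3 of 16 tested loci were higher and 2 lower (21.7% and 23.1% of all genes). Their part in these values was not tested.

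Of the collagen-binding alpha subunits, 2 of 10 tested loci were lower, where 23.1% of all genes were lower. Library totals alone gave 4 higher, a setting in which 10805 of all 30691 genes tested were higher. Itga2 (ncbi_110523919) stood at 61.2, 47.4 and 49.1 CPM in the wild type and at 45.7, 38.7 and 40.9 CPM in the yellow mutant (log2 fold change -0.33, SE 0.103 and adjusted p = 0.0171). ITGA11 (ncbi_110520392) overlapped between the groups at 4.65, 4.01 and 3.15 CPM against 3.18, 1.86 and 2.66 CPM (log2 fold change -0.62, SE 0.237 and adjusted p = 0.0463). Neither call was kept with library totals alone, with limma on FPKM, or without wild-type replicate 1, yellow mutant replicate 2 or yellow mutant replicate 3. The ITGA11 call was also lost in DESeq2 and without wild-type replicate 2. Dermal fibroblast markers, which share the collagen genes col1a1 and col1a2 with the ligand list, were summed at 62600 to 71000 CPM and 50700 to 55000 CPM. Of these markers, 2 of 25 loci were higher and 9 lower (21.7% and 23.1% of all genes). For alpha-4 and alpha-9, edgeR called 0 of 5 tested loci, with 1 at an unadjusted p under 0.05, and DESeq2 called 0. Limma on FPKM and library totals alone called 2 as higher, settings in which more of all genes were higher than lower. Itga4 (ncbi_110501761) stood at 8.05, 8.16 and 9.02 CPM against 8.50, 9.98 and 9.52 CPM, with a log2 fold change of 0.15 (SE 0.119 and adjusted p = 0.323).

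Of the loci that only carry an integrin beta name, 4 of 5 tested were lower, where 23.1% of all genes were lower. With library totals alone 2 were lower and 1 higher. An integrin beta-like protein A locus, ncbi_110506220, stood at 29.5, 46.9 and 40.4 CPM in the wild type and at 11.3, 20.1 and 19.5 CPM in the yellow mutant. It was lower without overlap (log2 fold change -1.19, SE 0.19 and adjusted p = 0.00022). A rare locus of the same name, ncbi_110510249, stood at 0.835, 1 and 1.09 CPM against 0, 0.294 and 0.0512 CPM. Its log2 fold change of -2.93 (SE 0.615 and adjusted p = 0.00171) rests on 46 and 7 counts, was -4.82 without yellow mutant replicate 2, and the locus reached the filter level in all libraries of the wild type only. ITGBL1 (ncbi_110502036), the most abundant of this class by FPKM, overlapped at 161, 141 and 155 CPM against 186, 137 and 167 CPM (log2 fold change 0.10, SE 0.105 and adjusted p = 0.471). ITGB1BP1 (ncbi_110505322), which binds the tail of beta-1 in mammals, fell by 0.47 (adjusted p = 0.00627), a call lost with library totals alone and with limma on FPKM.

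Other genes of the same structures were read from fixed lists of gene symbols. Of 66 tested loci with symbols of basement membrane and hemidesmosome partners, 26 were lower and 8 higher (median log2 fold change -0.23). Of all genes tested, 23.1% were lower and 21.7% higher. The symbol matches included loci with other product names, such as epiplakin and a lower desmoplakin-like locus (ncbi_110487693). The 3 called loci with the widest change and a mean FPKM of at least 1 carry the symbol PLEC but the product name epiplakin, a linker of keratin filaments, and fell by 0.82 (ncbi_110487685), 0.76 (ncbi_110487692) and 0.74 (ncbi_110488535). The following were chosen after their values were seen, as parts of the hemidesmosome and basement membrane. DST, a linker of beta-4 to keratin, fell by 0.69 (ncbi_110499368) and 0.32 (ncbi_110502687). Another dystonin-like locus, ncbi_110502688, carries the symbol Plec and had a log2 fold change of -0.36 that did not pass. COL17A1, a transmembrane collagen of the hemidesmosome in mammals, fell by 0.50 at ncbi_110493532 and had a log2 fold change of -0.23 at ncbi_110529109 that did not pass. Of 7 tested loci with the product name plectin, 3 fell, by 0.39 (ncbi_110518458), 0.36 (ncbi_110489723) and 0.49 (ncbi_110489293). The last of these carries the symbol eppk1, that of epiplakin, in the reference table, so its identity as plectin is uncertain. The other 4, ncbi_110496062, ncbi_110496064, ncbi_110487690 and MSTRG.22844, had log2 fold changes of 0.14, 0.34, -0.09 and -0.69 that did not pass. CD151, a tetraspanin partner of the laminin-binding integrins in mammals, rose by 0.55 at ncbi_110522692 and fell by 0.38 at ncbi_110526177. Among the 8 higher loci were also Col4a2 (ncbi_110520475), a basement membrane collagen chain, at a log2 fold change of 0.38, and the nidogen loci NID1 ncbi_110493748 and ncbi_110486033, which link laminin to collagen IV, at 0.37 and 0.23. Of the other collagen IV loci with a mean FPKM of at least 1, COL4A5 ncbi_110500339 and ncbi_110531422 and COL4A6 (ncbi_110500827) fell by 0.36, 0.42 and 0.21. Col4a2 (ncbi_110501998), COL4A1 (ncbi_110501999) and NID1 ncbi_110491212 did not pass, with log2 fold changes of -0.001, -0.11 and -0.11.

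Of 50 tested loci of integrin adhesion adaptors, 12 were lower and 10 higher, with a median of -0.07. The share called was near that of all genes tested, of which 23.1% were lower and 21.7% higher. FERMT3 (ncbi_110504641), the integrin activator of blood cells in mammals, fell by 1.21, and a PTK2 locus (ncbi_110507293), focal adhesion kinase, by 1.12, while LIMS1 (ncbi_110495369), a partner of integrin-linked kinase, rose by a log2 fold change of 1.06. The FERMT3 copies ncbi_110489050 and ncbi_110510002 had log2 fold changes of -0.22 and -0.07 and did not pass. Nor did the LIMS1 copies ncbi_110520376 and ncbi_110495372, at 0.17 and 0.15. Of 27 tested loci of other integrin ligands, 10 were lower and 3 higher (23.1% and 21.7% of all genes), with a median of -0.08. TNC (ncbi_110536289), the matrix protein tenascin, rose by 1.46, tgfb1 (ncbi_110534057) rose by 0.54, and THBS1 (ncbi_110497949), thrombospondin, fell by 1.30. Nerve and Schwann cell markers, a possible source of laminin, were summed at 439 to 458 CPM in the wild type and 452 to 539 CPM in the yellow mutant. Of these markers, 7 of 15 loci were higher and 4 lower (21.7% and 23.1% of all genes).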

How the data were processed

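Total RNA of dorsal skin was sequenced as Illumina libraries, 3 per phenotype, grouped by the phenotype label. The submitters' processing notes name Bowtie2 2.2.8 and TopHat2 2.1.1 without saying what each did. Not given in the sources used here are the counter, genome build, annotation and strand use. Per gene and library, the deposited file holds raw counts and the authors' FPKM, and the authors' log2 fold change and p-value with FDR, per the file headers. Counts were filtered with filterByExpr, scaled with TMM and compared with edgeR's glmQLFit and glmQLFTest without covariates (R 4.3.3, edgeR 4.0.16, limma 3.58.1, DESeq2 1.42.0), adjusted by Benjamini-Hochberg over 30691 genes at 0.05. The SE is the size of the log2 fold change divided by the square root of F. The script was tested on simulated data. Of the 111 loci, 17 were too low to test, and 6 of the 94 tested reached the filter level in all libraries of 1 phenotype only.

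Loci were classed by product name where symbol and product disagreed. Of 102 loci with NCBI numbers, 89 were found in the RefSeq gene table of USDA_OmykA_1.1, used only for names and gene order; 9 carry MSTRG identifiers. Values in all libraries are given for the epidermal loci and, in each other class, for the called loci with the 2 widest changes and the locus with the highest mean FPKM. One gene is counted in the totals but not reported here by name. The lists comprised basement membrane partners, integrin adhesion adaptors, other integrin ligands, and markers of epidermal cells, leukocytes, thrombocytes, skeletal muscle, endothelium, dermal fibroblasts and nerve. The members and lists were chosen with earlier results of these data known. Libraries of one phenotype differed by more than sampling noise (chi-square per degree of freedom 4.1 to 25.2), so each was kept. Alternatives were library totals, RLE, no filter, DESeq2, limma on log2(FPKM + 0.5) and log2(FPKM + 0.1), a replicate block and leaving out each library.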

Additional observations from a re-analysis of the deposited data

How the results depend on the processing

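Across 13 alternative settings, 22 of the 41 called loci passed in every one, 19 were lost in at least 1, 20 further loci passed in at least 1, and 0 called loci changed sign. The number called was 45 with library totals alone, 41 with RLE scaling, 42 without the filter (the same 41 and 1 locus outside the 94), 38 with DESeq2, 39 with limma at either pseudocount, and 33 to 41 on leaving out a library. Leukocyte integrins went from 3 called to 1 with library totals alone and with limma on log2(FPKM + 0.5) and log2(FPKM + 0.1), and ranged from 1 to 3 on leaving out a library, the lowest value coming without wild-type replicate 3 and also without yellow mutant replicate 1. The other integrin classes went from 13 called to 20 with library totals alone. Not all calls gained were near the threshold: Lamb1 ncbi_110490219 went from an adjusted p of 0.699 to 0.016 with library totals alone. On the log2(FPKM + 0.5) scale low loci changed less, such as Itga7 (0.62), ITGB8 (0.55) and Itga6 ncbi_110520109 (-0.69), since the pseudocount exceeds or nears their FPKM. The deviations of same-numbered libraries had correlations of 0.08, 0.014 and 0.056, small but above those of differently numbered ones (-0.062 to 0.007). Deviations were taken from the mean of only 3 libraries, so these values cannot settle whether the numbers are pairs. The labels state no pairing, and the numbers were not taken as pairs. A replicate block gave 42 calls, 1 more than without it. Low depth limits the loci with under 100 counts in a phenotype, such as MSTRG.11386, Itga7 and ncbi_110510249.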
